A study of Zea mays with 24 samples.

Results

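The comparison of leaves at developmental stage V5 with leaves at V4, both grown at a maximum daily temperature (MDT) of 35°C, used 6 of the 24 libraries of the series. The V4 group held 3 libraries taken 20 days after germination (DAG) and the V5 group held 3 libraries taken at 27 DAG. All plants were of the maize inbred line W22, and each sample was the mid portion of the newest fully expanded leaf, so a V4 and a V5 leaf are different leaves on the plant. Plants of both groups were kept under daily cycles that rose to 35°C by day and fell by night, and no other genotype or agent was used. An alternative splicing (AS) event entered the comparison when its type, gene, chromosome, strand and all its coordinates were the same in the tables of both stages, when it had a value in at least 2 libraries of each group and when it averaged at least 10 reads. Of 18730 events listed at both stages in 7405 genes, 7642 had a value in at least 2 libraries of each group at 35°C, and 7298 events in 3884 genes also passed the read minimum and were tested. A value in all 6 libraries was present for 4881 of them.

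The study followed AS at 4 MDTs (31°C, 33°C, 35°C and 37°C) and both stages, with 3 libraries for each of the 8 combinations. Plants of an MDT were divided between duplicate growth chambers, and the labels do not say which library came from which chamber. Stage, leaf position, day of sampling and days spent under the 35°C cycles change together here and cannot be told apart. The reads of W22 plants were aligned to the B73 genome (RefGen_V4), so splice sites that differ between the 2 lines are seen through the B73 sequence.

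A precursor mRNA can be spliced in more than one way, and the products can differ in the protein they encode, in stability or in whether they encode a full-length protein at all. In intron retention (IR) the intron stays in the mature RNA, in exon skipping (ES) an internal exon is left out, at alternative 5′ splice sites (A5SS) and alternative 3′ splice sites (A3SS) the end or the start of an exon shifts, and mutually exclusive exons (MXE) replace each other. Intron retention is the commonest form in plants, and retained introns often bring a premature stop codon. Splice sites are chosen with the help of serine/arginine-rich (SR) proteins, whose own transcripts are alternatively spliced in plants in response to light, heat and development.

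For each event the tables give inclusion reads, skipping reads and ψ, the share of transcripts that carry the included form after the reads are divided by the length each form offers for alignment. The included form holds the intron in IR, the exon in ES, the longer exon in A5SS and A3SS, and the exon that comes first in the transcript in MXE. Event reads summed to between 2414853 and 2533748 in the V4 libraries and to between 3103796 and 3378578 in the V5 libraries, and a tested event had a median of 58.7 reads in a V4 library and 77.0 in a V5 library. The median tested event had a residual deviance of 1.13 per degree of freedom between replicates, where 1 is binomial sampling. The tissue could not be checked by its markers, since the 6 leaf marker genes found in the annotation text had no event with a value. The 3 genes whose text names pollen, zein or root had 1 event with a value at V4 and 5 at V5, and none was tested.

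In the leaves at 35°C, 225 events in 169 genes were differentially spliced (DAS) between V5 and V4, which is 3.08% of those tested. A DAS event had a false discovery rate (FDR) of at most 0.01 within its AS type, and its mean ψ differed by more than 5 points. Inclusion was higher at V5 in 103 events (1.41% of those tested) and lower in 122 (1.67%). An unadjusted p under 0.05 was reached by 1562 events. The count depended on the test. By comparison, limma on log2 ratios of the reads called 11 events, all among the 225, with no ES, A3SS or MXE event, at 1559 events with an unadjusted p under 0.05. The SR45a A5SS events and the MAPKKK3 intron were among these 11. In all 225 DAS events the V5 libraries with a value lay apart from the V4 libraries with a value. This was also true of 30.0% of all tested events. A value in all 6 libraries was present for 216 of the DAS events and 4881 of the tested events. The others had 2 libraries in at least 1 group, and groups of 2 lie apart more readily. The median DAS event differed by 20.4 points against 4.0 points over all tested events, and the largest difference was 66.7 points. DAS events also had more reads, a median of 187 per library against 69.8. The number called was between 150 (without V5 replicate 3) and 205 (without V4 replicate 3) when a library was left out.

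**Figure D1:**
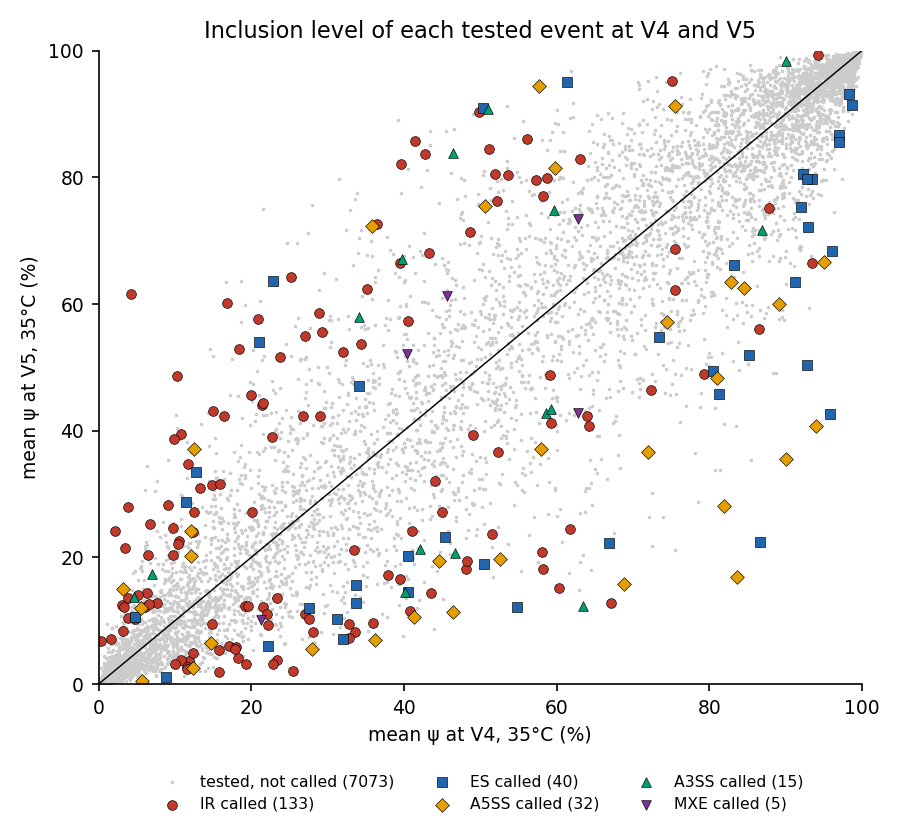
Mean ψ of each of the 7298 tested events in V4 (x axis) and V5 leaves (y axis) at 35°C, in percent, with the line of equality. Grey points are events that were not called and coloured symbols are the 225 DAS events by type. The IR events, 133 in number, lie on both sides of the line, while 32 of the 40 ES events lie below it.

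The types of AS differed in how often they were called and in which direction. IR supplied 133 DAS events in 119 genes, 6.78% of the 1961 tested and 59.1% of all DAS events, and was divided between 74 introns that were retained more at V5 and 59 retained less, or 55.6% higher (Wilson 95% interval 47.2 to 63.8%, for counting error only). ES supplied 40 DAS events (1.95% of 2047), of which 8 exons were included more and 32 less at V5, or 20.0% higher (10.5 to 34.8%). Both intervals take events as independent, although events of a gene share reads, and can be too narrow. Called A5SS events were also more often lower, with 10 of 32 (3.15% of 1016) higher and 22 lower. Over all tested events, 40.4% of ES but 52.0% of A5SS events had a higher ψ at V5, so the balance of the called A5SS events was not that of the type. At A3SS, which was the type with most events tested, 15 of 2087 (0.719%) were called, 8 of them higher. MXE gave 5 DAS events among 187 (2.67%).

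The count of ES events depended on single V5 libraries. It was 18 without V5 replicate 1, 23 without V5 replicate 2 and 17 without V5 replicate 3, and the lower events outnumbered the higher ones in each of these fits. A5SS had 20 events without V5 replicate 1 and 21 without V5 replicate 2. A3SS had 7 without V4 replicate 1, 8 without V4 replicate 2, and 7, 4 and 3 without V5 replicates 1, 2 and 3. MXE had 11 and 9 without V4 replicates 2 and 3, and 9, 3 and 2 without V5 replicates 1, 2 and 3. With overlapping events of identical skipping counts merged, 26 ES events remained in the count, 19 of them lower at V5.

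**Figure D2:**
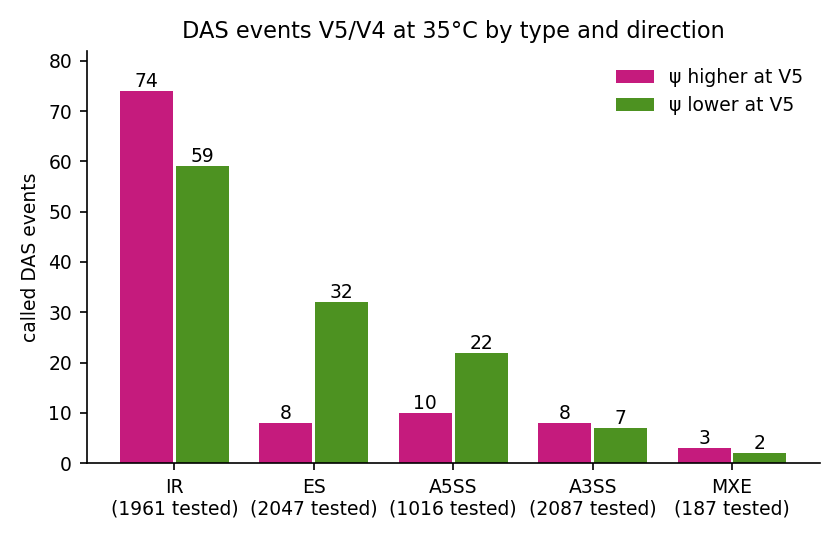
Number of DAS events (y axis) for each AS type (x axis, with the number of events tested) at 35°C, with bars for events whose ψ was higher at V5 and lower at V5. ES has 8 higher against 32 lower and A5SS has 10 against 22, whereas IR has 74 against 59.

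Over all events rather than the called ones, the mean ψ of a library was lower at V5 in ES and differed less in the other types. For the 1155 ES events valued in all 6 libraries the mean ψ was 68.8, 68.2 and 68.3% in the V4 libraries and 66.1, 66.0 and 66.1% in the V5 libraries. Every V5 library was below every V4 library, the difference was -2.35 points, and the exact two-sided permutation p was 0.1, the smallest that 3 libraries against 3 can give. The same difference was -1.52 points over all 2047 tested ES events, each library averaged over its own values. For the 1504 IR events the mean was 32.4% ± 0.22 at V4 and 33.2% ± 0.22 at V5 (SD, n = 3 libraries each), a difference of 0.82 points (exact p = 0.1). Over all 1961 tested IR events it was 0.8 points with the groups overlapping (exact p = 0.2), since V5 replicate 3 at 34.72% lay just under V4 replicate 3 at 34.73%. The mean ψ of A5SS and A3SS events differed by -0.12 and 0.01 points (exact p = 0.7 and 1.0), and that of A5SS events with at least 20 reads by -0.56 points (exact p = 0.1). For 128 MXE events it differed by -1.16 points (exact p = 0.1), although 3 of the 5 called MXE events were higher at V5.

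Splicing regulators stood out among the listed genes. Of 8 such genes that the study names, 5 had tested events, 36 in number, and 11 of these events (30.6%, beside 3.08% of all events) were called in 3 genes, 1 higher and 10 lower at V5. The study singled out the 3 genes with calls from these same libraries, so the count is no independent evidence for them. The SR45a relatives on the list, 3 in number, had no event listed at both stages. The 11 events are also not independent of each other, because events of a gene share skipping reads.

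The Arabidopsis gene named SR45a has transcripts that respond to heat and high light. The study reports that it is not close in sequence to the maize gene. Maize SR45a (Zm00001d047847), an SR protein, had 3 of its 12 tested events called, all lower at V5. The event with the lowest FDR of all 7298 was its A5SS on chromosome 9, where a downstream donor site lengthens the exon by 207 bases (143197907 to 143198113, plus strand). The longer exon had a ψ of 47.0, 46.7 and 45.7% in the V4 libraries and 11.5, 11.3 and 11.5% in the V5 libraries. It fell by 35.0 points (SD 0.68 at V4 and 0.12 at V5, n = 3 each, FDR = 7.21e-12).

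The reads behind this fall changed mainly on the side of the short exon. Skipping reads were 515, 586 and 586 in the V4 libraries, against 2600, 2925 and 2786 in the V5 libraries. Inclusion reads went from 1092, 1226 and 1176 to 809, 891 and 868. The same skipping reads serve a second A5SS event of SR45a, with a segment of 210 bases, that fell from 41.3% ± 0.87 to 10.5% ± 0.25 (SD, n = 3 each, FDR = 1.24e-11). They also serve the skipping of an exon of 93 bases (143198022 to 143198114), whose inclusion fell from 8.8% ± 1.18 to 1.1% ± 0.1 (FDR = 5.26e-07). The 3 calls rest on the same skipping reads, and each was kept when any 1 of the 6 libraries was left out. Relative to all event reads of a library, the reads of the A5SS event of 207 bases, both forms summed, were higher at V5 by 0.68 on the log2 scale.

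SR34 (Zm00001d040672), an SR protein of the family that binds exons and helps place the spliceosome, had the most DAS events of the listed genes, 6 of 10 tested. Inclusion of an exon of 177 bases (chromosome 3, 57180443 to 57180619, minus strand) was 48.0, 60.9 and 42.7% at V4 and 17.3, 19.1 and 20.4% at V5. The groups did not overlap, and the exon fell by 31.6 points (FDR = 0.000321). An A5SS of 1723 bases and the retention of an intron of 2233 bases, which share the skipping reads of that exon, fell by 20.9 and 18.1 points (FDR = 0.00019 and 0.000413). Skipping reads were 52, 52 and 65 at V4 and 217, 207 and 184 at V5.

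Retention of a shorter SR34 intron, 510 bases from 57179933 to 57180442, went the other way. Its ψ was 57.3, 45.3 and 58.4% at V4 and 78.6, 80.9 and 81.7% at V5, so that it rose by 26.7 points (FDR = 0.000261). The A3SS events of SR34, of 666 and 687 bases, each fell by 15.8 points (FDR = 0.00668 and 0.00865). They rest on the same skipping reads as the exon of 177 bases, and their segments contain the intron of 510 bases. The calls of these A3SS events were not stable. The former was lost without any 1 of the 6 libraries (FDR of at most 0.0243) and the latter without any 1 of 5, all but V4 replicate 3 (FDR of at most 0.0264).

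SPFcc1-like (Zm00001d048415), which the study lists as a splicing regulator, had 2 DAS events of 10 tested, and these share skipping reads. Retention of its intron of 655 bases (chromosome 9, 155890550 to 155891204, minus strand) was 36.2, 48.7 and 45.7% at V4 and 10.4, 22 and 10.6% at V5, and fell by 29.2 points (FDR = 0.00133). V5 replicate 2 was the highest of its group and still lay under the lowest V4 library. Inclusion of its exon of 53 bases fell from 31.2% ± 3.72 to 10.2% ± 3.29 (FDR = 0.00855), a call that was lost without any 1 of the 6 libraries (FDR of at most 0.0276). SCL33 (Zm00001d022243), an SC35-like SR protein, had 2 events tested and none called. The more changed of these was an exon of 105 bases at 17.8% ± 0.67 in V4 and 14.8% ± 2.0 in V5 leaves (FDR = 0.306). The SRP gene (Zm00001d051139) had 2 tested and none called, with retention of an intron of 126 bases at 79.2% ± 10.9 (n = 3) and 96.8% ± 2.62 (n = 2, FDR = 0.0325). Without V4 replicate 3 that event passed the threshold (FDR = 0.00329).

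Other genes that the study names, 11 in all with waxy, whose intron it used as a splicing substrate, had 38 tested events in 8 genes, of which 4 (10.5%, beside 3.08% of all events) were called. Several of these genes were also singled out by the study for their splicing in these libraries, so this count is no independent evidence either. The largest IR change of the whole comparison was among them, in a MAPKKK3 gene (Zm00001d026511), a kinase at the top of a mitogen-activated protein kinase cascade. Its intron of 114 bases (chromosome 10, 147387187 to 147387300, minus strand) was retained in 5.9, 4.9 and 1.8% of transcripts at V4 and in 61.8, 60.7 and 62.3% at V5. The intron rose by 57.4 points (SD 2.14 and 0.82, FDR = 1.99e-05).

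Coverage of that intron was low at V4. Inclusion reads were 2, 2 and 1 in the V4 libraries, against 143, 150 and 137 in the V5 libraries. Skipping reads went from 18, 22 and 31 to 50, 55 and 47. Relative to all event reads, both forms together were higher at V5 by 2.55 on the log2 scale, and the part of this rise in the call was not tested. The other MAPKKK3 gene (Zm00001d025449) had an intron on the same chromosome at 34.4, 11.8 and 17.3% in V4 and 8.5, 6.3 and 8.7% in V5 leaves, which did not pass (FDR = 0.0446).

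CAU1 (Zm00001d004109), a homolog of an Arabidopsis gene that acts in calcium accumulation and in silencing a flowering repressor, had 1 of 13 events called. Retention of its intron of 464 bases was 21.6, 36.8 and 25.9% at V4 and 6.1, 10.3 and 8.1% at V5, and fell by 19.9 points (FDR = 0.00369). That call was lost without V4 replicate 2 (FDR = 0.0111), V5 replicate 1 (0.0135) or V5 replicate 3 (0.0119).

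The PE-binding protein gene Zm00001d021135, a homolog of the flowering gene FT, had 2 introns called, both retained more at V5. The intron of 961 bases (chromosome 7, 143620433 to 143621393, minus strand) was at 14.9, 24 and 25.9% in V4 and 41.8, 49.0 and 42.4% in V5 leaves, and rose by 22.8 points (FDR = 0.00413). The intron of 997 bases rose by 15.7 points, from 15.9% ± 4.97 to 31.6% ± 0.78 (FDR = 0.00781). The former call was lost without V4 replicate 1 (FDR = 0.0201) or V5 replicate 2 (0.0135), and the latter was kept only when V4 replicate 3 was left out (FDR of at most 0.0434 in the other 5 fits). A further PE-binding protein gene (Zm00001d046300) had an intron of 362 bases at 39.6% ± 4.91 in V4 and 23.1% ± 3.39 in V5 leaves, just outside the threshold (FDR = 0.0129). NF-YB1, HSFTF9 and the third PE-binding gene (Zm00001d006116) had 2 tested events each and none called, and NCRK, CONSTANS-LIKE9 and waxy had none tested.

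**Figure D3:**
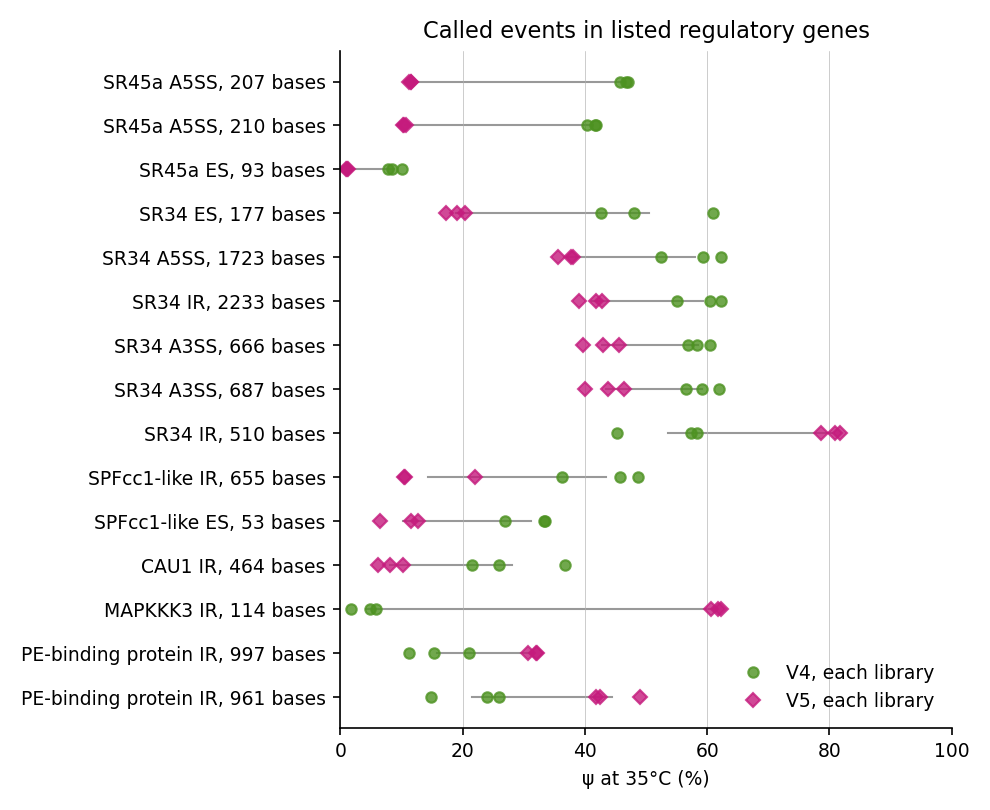
ψ in percent (x axis) in each V4 library (circles) and each V5 library (diamonds) at 35°C for the 15 DAS events in listed regulatory genes (y axis, with type and length of the variable segment). Grey lines join the group means. The groups do not overlap in any of the 15, and the MAPKKK3 intron has the widest gap, from at most 5.9% at V4 to at least 60.7% at V5.

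Annotation text was at hand for few genes, 79 of those tested and 3 of those called, so lists drawn from it say little about function. Among genes annotated with splicing and RNA processing 3 of 14 tested events were called (beside 3.08% of all events), all of them the SR45a events. Transcription and chromatin had 1 of 10 (an exon in Zm00001d049223, 98.7 to 91.4%, n = 2 and 3, FDR = 0.00469, lost without V5 replicate 1 or V5 replicate 3), transport had 1 of 8 (an intron in Zm00001d046661, 3.2 to 8.43%, FDR = 0.000343, not above 5 points without V5 replicate 1), and none was called among 15 events of kinases and phosphatases, 3 of heat shock and folding, 1 of clock, light and flowering and 1 of ubiquitin and proteolysis. Photosynthesis and chloroplast had no event tested. The remaining DAS genes are named by identifier alone.

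The largest difference of any DAS event was in Zm00001d020717, at an A5SS on chromosome 7 (129917490 to 129917701, minus strand, 212 bases). In the V4 libraries the longer exon was used in 85.5, 83.0 and 82.3% of transcripts, and in the V5 libraries in 17.3, 17.1 and 16.3%. It fell by 66.7 points (SD 1.68 and 0.53, FDR = 4.03e-11), so that the major form at V4 became the minor form at V5. Such a switch across 50% was seen in 62 DAS events (27.6%) and in 535 tested events (7.33%). Other A5SS events with large falls were in Zm00001d051627 (90.0 to 35.5%, n = 2 and 3, 293 bases, lost without V5 replicate 1 or V5 replicate 3), Zm00001d027230 (94.0 to 40.7%, 123 bases) and Zm00001d008320 (68.9 to 15.7%, 180 bases). In Zm00001d051627 each V4 library with a value had 1 skipping read.

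Among skipped exons the best supported was in Zm00001d027756 (chromosome 1, 12714974 to 12715107, plus strand, 134 bases). Its inclusion was 68.9, 66.2 and 65.4% at V4 and 22.8, 21.9 and 22.2% at V5, and it fell by 44.5 points (FDR = 7.57e-09). The largest ES difference was an exon of 37 bases in Zm00001d017829, at 90.6, 84.9 and 84.5% in V4 and 33.2, 12.2 and 22.1% in V5 leaves (FDR = 0.000948), on a mean of 27.0 and 34.3 reads. Exons of 113 bases in Zm00001d026248 and of 67 bases in Zm00001d002534 fell by 42.7 and 42.4 points (FDR = 0.00181 and 0.000386). Among the 8 exons included more at V5, one of 1414 bases in Zm00001d016873 rose from 50.4% ± 9.3 to 91.0% ± 2.46 (FDR = 0.002). Its event reads were 135 per V4 library and 403 per V5 library. Exons of 110 bases in Zm00001d032659 and of 75 bases in Zm00001d034040 fell by 33.3 and 35.5 points (FDR = 0.00397 and 0.00724), and one of 73 bases in Zm00001d029237 rose by 33.0 points (FDR = 0.00872). Without V5 replicate 3 all 3 of these calls were lost. That of Zm00001d034040 was also lost without V4 replicate 3 or the other V5 libraries, and that of Zm00001d029237 without any library but V4 replicate 3.

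Introns with large differences were found in both directions. In Zm00001d053657 an intron of 879 bases was retained in 77.3, 69.9 and 54.1% at V4 and in 11.3, 17.1 and 9.8% at V5 (FDR = 0.000225). In Zm00001d037200 an intron of 298 bases fell by 45.2 points (FDR = 0.000635). Rises were seen for introns of 158 bases in Zm00001d000401 (41.5 to 85.8%, FDR = 0.00153), 86 bases in Zm00001d012974 (16.9 to 60.2%, FDR = 0.00181), 133 bases in Zm00001d041983 (42.8 to 83.7%, FDR = 0.00176) and 87 bases in Zm00001d033037 (49.9 to 90.4%, FDR = 0.00277). The intron in Zm00001d040979 (chromosome 3, 87676068 to 87676587, minus strand, 520 bases) changed less and was measured better, with 3.2, 3.5 and 3.8% at V4 and 20.5, 23.0 and 21.1% at V5 (a rise of 18.0 points, FDR = 1.23e-09, on 1904 and 1036 reads per library).

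At 3′ splice sites, the longer exon rose in Zm00001d011168 (51 to 90.8%, a segment of 1631 bases) and Zm00001d021247 (46.5 to 83.9%, 157 bases, lost without V5 replicate 2 or V5 replicate 3). It fell in Zm00001d022230 (46.7 to 20.6%, 10 bases, kept only without V4 replicate 3 or V5 replicate 1) and Zm00001d038051 (40.2 to 14.5%, 7 bases, lost without any of the V5 libraries). In Zm00001d011168 the skipping reads were few, with 11, 18 and 11 at V4 and 7, 7 and 8 at V5. Inclusion reads of that event went from 157, 166 and 161 to 809, 980 and 835. The 2 largest MXE differences were in Zm00001d009983, where use of an exon of 93 bases fell from 62.9% ± 0.95 to 42.8% ± 1.66 (FDR = 1.3e-05), and in Zm00001d037984, where use of an exon of 77 bases rose from 45.6% ± 3.5 to 61.2% ± 3.25 (n = 3 and 2, FDR = 0.00377).

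Several genes carried more than one DAS event, 38 genes with 2 or more and 8 with 3 or more. Zm00001d029366 on chromosome 1 had 7 DAS events between 67605472 and 67607486, several of them overlapping, 5 IR, 1 A5SS and 1 A3SS, and inclusion rose at V5 in all 7, by 24.1 to 42.5 points. Its intron of 943 bases was at 36.3, 41.7 and 40.9% in V4 and 79.1, 88.6 and 78.7% in V5 leaves (FDR = 9.72e-05). Its A3SS, its A5SS and its intron of 1714 bases share their skipping reads. The A3SS call was lost without V4 replicate 1 or any of the V5 libraries, and the call of the intron of 226 bases without V4 replicate 2, V4 replicate 3 or V5 replicate 2.

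In Zm00001d037625 on chromosome 6, 2 A5SS events, 1 ES and 1 IR, which rest on the same skipping reads, fell by 26.0 to 32.9 points. Its A5SS of 335 bases went from 52.6% ± 4.48 to 19.7% ± 1.08 (FDR = 6.62e-06). Zm00001d032659 had 2 overlapping exons and an intron of 4040 bases that share their skipping reads and fell by 20.7 to 33.3 points. Its exon of 106 bases was not called without V5 replicate 1 or V5 replicate 3. Zm00001d038805 had 2 introns, an A5SS and an A3SS that rose by 23.9 to 39.0 points. Its A3SS was called in 1 of the 6 fits with a library left out, that without V4 replicate 3, and its A5SS in 2, those without V4 replicate 1 or V5 replicate 1. Zm00001d017178 had 3 introns and an A3SS that fell by 10.4 to 15.7 points, with event reads that were lower at V5 for all 4. Its A3SS and its intron of 1076 bases share their skipping reads. Its A3SS was not called without V4 replicate 1 or any V5 library, nor its intron of 311 bases without V4 replicate 2, V4 replicate 3, V5 replicate 1 or V5 replicate 3. Zm00001d048524 was mixed, with an intron of 2155 bases that fell from 19.4% ± 2.45 to 3.1% ± 0.7 (FDR = 1.86e-05). An exon of 901 bases and an A5SS of 1014 bases, which share their skipping reads, rose by 33.8 and 36.8 points. These skipping reads were 19, 22 and 25 at V4 but 1, 2 and 2 at V5, where a value needs at least 1.

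The DAS events differed from the tested events in length, described here without a test. Called introns had a median of 539 bases against 316 over all tested introns, and the segments between alternative sites had medians of 254 bases against 36 in A5SS and 253 against 18 in A3SS. A longer segment offers more positions for inclusion reads, and DAS events had more reads. The part of read number in these lengths was not tested. Among the A3SS events tested, 328 shifted the exon by 3 bases, as at tandem NAGNAG acceptors, and none of these was called, beside 0.719% of all A3SS events, a share at which few calls would fall among them. Exons of called ES events were close to the tested ones, with medians of 97 and 106 bases, and 40.0 and 40.7% had a length divisible by 3. Event reads relative to the library's total differed by at most 2-fold in 184 DAS events (81.8%) and in 89.1% of the tested events. They were over 2-fold higher at V5 in 17 and over 2-fold lower in 5 of the 103 events with higher ψ. Of the 122 events with lower ψ, 2 were over 2-fold higher and 17 over 2-fold lower, beside 355 and 440 of the 7298 tested events.

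The same comparison of V5 with V4 at the other MDTs used other libraries throughout. It gave 57 DAS events at 31°C (0.843% of those tested, with 0.37% higher and 0.473% lower at V5), 172 at 33°C (2.48%, with 1.05% higher and 1.43% lower) and 76 at 37°C (1.08%, with 0.255% higher and 0.821% lower), so that 35°C had the highest count. Lower inclusion prevailed among called ES events at 33°C (9 higher, 28 lower) and held for all 6 at 31°C and for 4 of 5 at 37°C. Called IR events were even at 33°C (46 and 46) and mostly lower at 37°C (12 higher, 43 lower), beside 74 and 59 at 35°C.

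Most events called at 35°C moved the same way at the other MDTs, but less. Of the DAS events of 35°C, 216 were tested at 31°C and 181 (83.8%) had the same direction there, against 62.4% of all events tested at both. The share was 194 of 213 at 33°C (91.1% against 65.6%) and 204 of 218 at 37°C (93.6% against 60.2%). Their median difference was 7.17, 12.0 and 8.02 points at 31°C, 33°C and 37°C, while the same events had 20.1 to 20.4 points at 35°C, where they were chosen. Calls shared with 31°C, 33°C and 37°C numbered 29, 71 and 44, which is 12.9, 31.6 and 19.6% of the events called at 35°C and 50.9, 41.3 and 57.9% of those called at the other MDT, and all had the same direction. Called at all 4 MDTs were 13 events, and 132 were called at 35°C and at no other MDT, which does not show that they differ between MDTs.

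**Figure D4:**
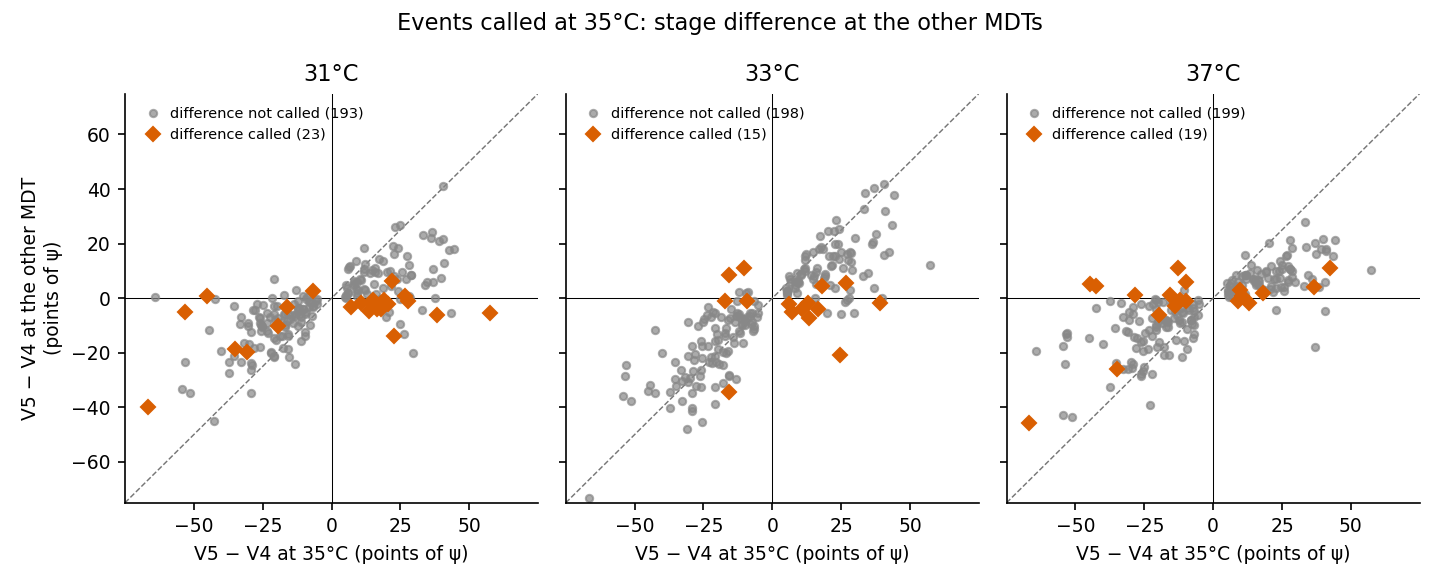
Difference of mean ψ between V5 and V4, in percentage points, at 35°C (x axis) and at 31°C, 33°C or 37°C (y axis, left to right) for the DAS events of 35°C that were tested at the other MDT. The dashed line marks equal differences, and orange diamonds are events whose 2 differences differed from each other by the test of the interaction (23, 15 and 19 events). Most points share the sign of 35°C and lie closer to 0 on the y axis.

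Whether the difference between stages at 35°C differed from that at another MDT was tested over all events by the interaction of stage and MDT. The test compares log odds, the logarithm of inclusion over skipping reads, and not points of ψ. A large difference in points can therefore fail it and a small one can pass, and a call also needed more than 5 points. The interaction was called in 33 of 5785 events against 31°C (0.57%), 22 of 5906 against 33°C (0.373%) and 28 of 6014 against 37°C (0.466%). An unadjusted p under 0.05 was reached by 621, 618 and 693. The 33 events against 31°C were 26 IR, 5 A5SS and 2 A3SS in 30 genes, and in 25 the stages differed in opposite directions at the 2 MDTs. Of the 225 DAS events, 44 had at least 1 of the 3 interactions called and 2 had all 3. Without V4 31°C replicates 2 and 3, whose inclusion reads were recovered from ψ, 14 events were called against 31°C. That fit has 1 library for V4 at 31°C, which is assumed to vary like the other groups.

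The MAPKKK3 intron (Zm00001d026511) had its interaction called against 31°C. Its mean ψ was 14.6, 6.05 and 2.7% at V4 and 9.3, 18.0 and 12.9% at V5 under 31°C, 33°C and 37°C (n = 2 at V4 31°C and 3 elsewhere), so that the V5 libraries at 35°C, from 60.7%, stood above the V5 libraries of every other MDT, at 1.7 to 19.4%. The stage difference at 35°C exceeded that at 31°C by 62.7 points (interaction FDR = 0.000387). At V4 31°C the intron had values in replicates 2 and 3 only, at 5.6 and 23.6%, and inclusion reads of both were recovered from ψ. Without these libraries the interaction against 31°C could not be tested for this intron. The interactions against 33°C and 37°C did not pass (FDR = 0.0324 and 0.284).

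For the SR45a A5SS of 207 bases (Zm00001d047847), mean ψ at V4 was 71.0, 57.7 and 60.8% and at V5 52.3, 25.4 and 34.8% at 31°C, 33°C and 37°C. It was lower at V5 at every MDT and was called at all 4, with differences of -18.7, -32.3 and -26.0 points at the other MDTs. The interaction was called against 31°C (FDR = 2.55e-11) and 37°C (FDR = 8.19e-07), and against 33°C its FDR was 0.000283 with a difference of the changes of less than the required 5 points. The lowest ψ of this event at either stage was at 35°C.

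The SR34 intron of 510 bases (Zm00001d040672) stood near its V4 level at V5 31°C and 33°C, with stage differences of 0.7 and 5.46 points there and 15.7 points at 37°C. Its interaction was called against 31°C and 33°C (FDR = 0.000823 and 0.00845). The intron of Zm00001d040979 was called in all 3 interactions, with stage differences of -3.9, 4.46 and 2.03 points at 31°C, 33°C and 37°C beside 18.0 at 35°C. In Zm00001d027756 the exon fell at 31°C and 33°C too, by 11.7 and 31.8 points, but was 5.23 points higher at V5 at 37°C, where the interaction was called. The A5SS of Zm00001d020717 was called at all 4 MDTs, with differences of -40.0, -73.3 and -45.7 points at the other MDTs.

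**Figure D5:**
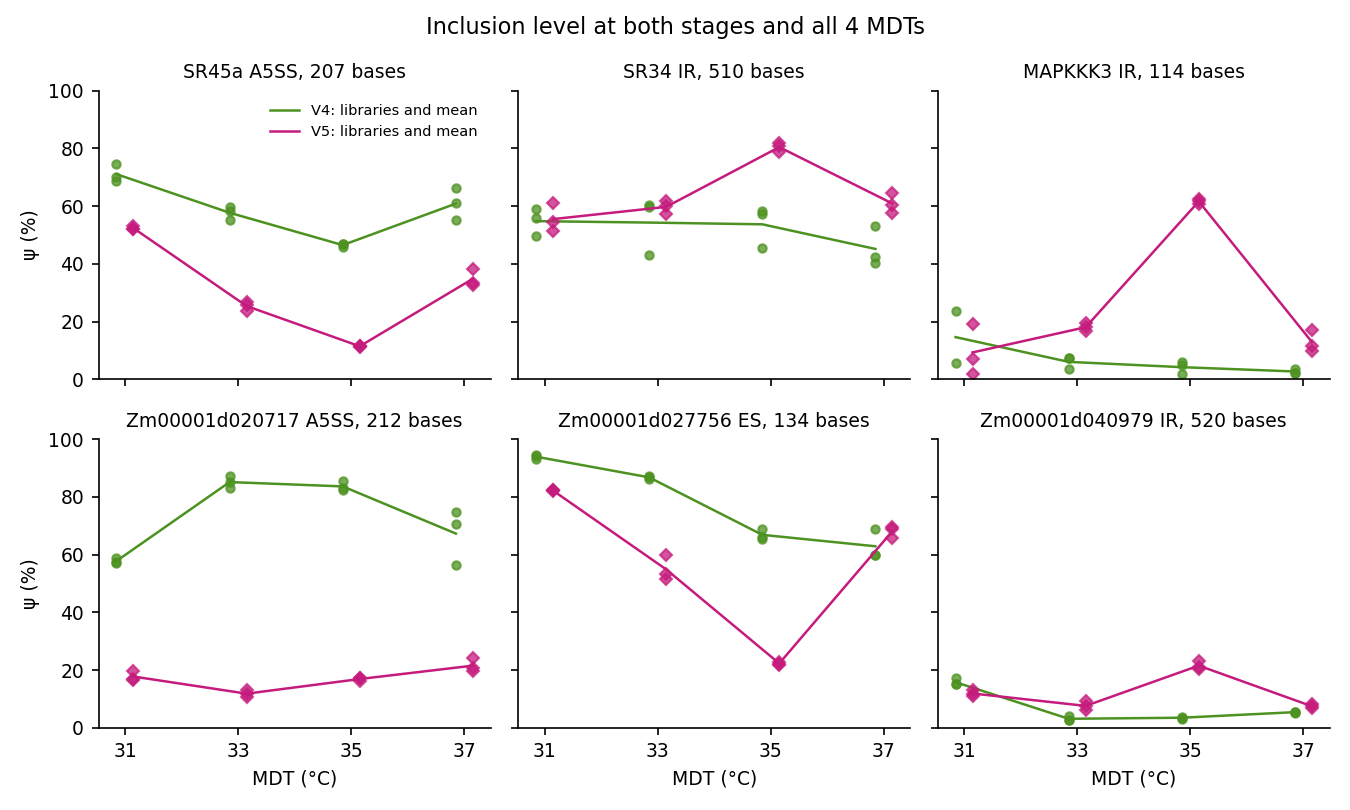
ψ in percent (y axis) at each MDT (x axis, °C) for 6 events, with a point for each V4 library (circles) and V5 library (diamonds) and lines through the group means. At V5 the MAPKKK3 and Zm00001d040979 introns are highest at 35°C (means 61.6 and 21.5%) and the SR45a A5SS and Zm00001d027756 exon are lowest (11.4 and 22.3%), while Zm00001d020717 keeps a wide gap between the stages at all 4 MDTs.

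The place of 35°C among the MDTs differed between the stages. Of 208 DAS events valued in at least 2 libraries of all 8 groups, the mean ψ at V5 was at its highest or lowest at 35°C in 157 (75.5%), against 50.8% of 4958 tested events. At V4 the mean was highest or lowest at 35°C in 98 (47.1%), against 43.7% of the tested events. Because the DAS events were called on these V5 libraries, their share is a description and was not tested.

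More events were counted at V5, mostly skipped exons. A V4 library had 9880 to 10163 events with at least 1 read of each form and a V5 library 12686 to 13239, or 1.28-fold more (exact permutation p = 0.1, the smallest possible). ES rose from 3350 ± 45.5 to 5392 ± 193 events per library (SD, n = 3 each), 1.61-fold, MXE 1.47-fold and IR 1.06-fold, and asking for 2 reads of each form left ES at 1.61-fold. The V5 libraries were deeper in event reads as given above. Events were also listed separately for each stage, with 22077 at V4, 28092 at V5 and 18730 at both. An event that a stage did not list could not be counted in its libraries. The parts of depth and of the separate lists in these counts were not tested.

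Events valued at only 1 of the stages could not enter the test of ψ. A value in all 3 V5 libraries and in no V4 library was found for 673 events in 518 genes, 458 of them ES, and the reverse for 113 events in 93 genes, 42 of them ES. The smaller form had few reads in most, with a median of 2.33 and 2.0 reads, and averaged at least 10 reads in 22 and 3 events. Listed at both stages were 456 of the 673 and 106 of the 113. The rest could have no value at the stage that did not list them. In 477 of the 673 and in 90 of the 113 the gene had another event with a value at the stage where this one had none. The 5 such events with most reads of the smaller form were all MXE, led by Zm00001d031203 at V4 with ψ of 21.5, 22.4 and 23.5% on a mean of 2133 reads. It also had a value in 1 of 3 libraries at V5 31°C, at 17.3%, and in 2 of 3 at V4 33°C, so an MXE without a value is not shown to be unspliced in this way. The other 4 were seen at V5, in Zm00001d036230, Zm00001d022600, Zm00001d013694 and Zm00001d007938, with 53.3 to 143 reads of the smaller form.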

How the data were processed

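Poly(A) RNA of 24 leaf samples was sequenced, and the authors aligned the filtered reads to B73 RefGen_V4 with HISAT2 2.0.4 and detected AS events with rMATS. For every event and library, a table per stage holds the raw counts of reads of the included and of the skipped form, deposited by the authors without normalization. The fraction ψ was computed by the authors from these counts and the effective lengths of both forms, which matched reads of 150 bases in 100% of 204678 values within 0.001, although the methods give shorter reads. Columns were assigned by name, and 5 columns of single samples were not used. The repeated heading lines, 4 per stage, were left out. For V4 at 31°C, replicates 2 and 3 lacked assignable inclusion reads, which were recovered from ψ (9065 and 9338 events). For V4 at 33°C, ψ was derived from the reads. A value needs reads of both forms, and a missing value was not set to 0. Positions are 1-based in B73 RefGen_V4, and no genome was used, so no sequence is shown.

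The reads of both forms were fitted event by event with a quasi-binomial model (R 4.3.3). Its residual deviance per degree of freedom was shrunk towards that of all events (limma 3.58.1, squeezeVar) and not let below 1, and F-test p-values were adjusted over the events of a type (Benjamini-Hochberg). The interaction with MDT used the 12 libraries of both MDTs and was tested on the log odds of the reads. Single values per library were compared by exact permutation tests. Tables were handled with Python 3.11.15, pandas 2.3.3, numpy 2.4.6 and scipy 1.17.1, and the fits were tested on simulated data. The DAS thresholds are those of the study, whose own test (rMATS) was not rerun. Alternatives were edgeR 4.0.16, limma on log2((inclusion + 0.5)/(skipping + 0.5)), other read minimums, thresholds and adjustments, a replicate block and each library left out.

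Named events were called events whose groups averaged 20 reads or more and did not overlap, 1 a gene (the 8 IR, 8 ES, 4 A5SS, 4 A3SS and 2 MXE with the largest differences and the 5 of lowest FDR), all called events of listed genes and the most changed event of other listed genes, genes with 3 or more called events, up to 4 called events of each annotation list, the 5 largest interactions with 31°C, and the 5 events of 1 stage with most reads of the smaller form. Members, lists and tests were chosen with earlier results of these data known. The labels number the replicates without naming separate chambers. The study samples separate plants. The p-values of the event fits rest on the spread between these samples after it is shrunk towards that of all events and held at 1 or more. Where replicates agree more closely, as in the SR45a A5SS of 207 bases (0.209 per degree of freedom), the p-value does not measure their own spread. The replicate pairs of a group differed by more than counting noise, with a deviance per degree of freedom that averaged 1.39 to 1.52 over events, so none was a copy. Reads carry no molecular identifiers. Intervals cover counting error only and take events as independent, although events of a gene share reads.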

Additional observations from a re-analysis of the deposited data

Results flagged for a closer look

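For the named events below, the interaction of stage and MDT was called, with an FDR of at most 0.01 and more than 5 points between the 2 differences. The FDR is that of a test on log odds, and the points of ψ were not themselves tested. Values are the difference at 35°C minus the difference at the other MDT, in percentage points of ψ, with 3 libraries in each of the 4 groups unless a value is missing. No explanation was weighed.

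Against 31°C, the IR events differed by 62.7 points in Zm00001d026511 (MAPKKK3), 44.4 in Zm00001d040342, 26.0 in Zm00001d040672 (SR34, intron of 510 bases), 21.9 in Zm00001d040979, -12.9 in Zm00001d048524, -26.6 in Zm00001d046300 (PE-binding protein), -43.9 in Zm00001d008933 and -46.1 in Zm00001d037200. The introns of Zm00001d046300 and Zm00001d008933 were themselves not called at 35°C (FDR = 0.0129 and 0.0143), although the latter was called without V4 replicate 3 or V5 replicate 3 (FDR = 0.00777 and 0.00901). The A5SS events differed by -48.4 points in Zm00001d027230, -26.7 in Zm00001d020717 and -16.3 and -11.2 in Zm00001d047847 (SR45a, segments of 207 and 210 bases). For the MAPKKK3 intron, V4 at 31°C has values in replicates 2 and 3 only, whose inclusion reads were recovered from ψ.

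Against 33°C, the differences were 45.5 points for an A5SS and 40.8 for an intron of Zm00001d038805, 21.3 for the SR34 intron (Zm00001d040672), 13.6 for the intron of Zm00001d040979, and -24.1 and -21.5 for the introns of 660 and 311 bases of Zm00001d017178. In Zm00001d017178 those introns had stage differences of 8.39 and 11.1 points at 33°C and -15.7 and -10.4 points at 35°C.

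Against 37°C, the differences were 32.5 points for the A5SS and 31.4 for the intron of 943 bases of Zm00001d029366, 16.0 for the intron of Zm00001d040979, -9.0 for the SR45a A5SS of 207 bases (Zm00001d047847), -16.7 for the intron of 660 bases of Zm00001d017178, -21.0 for the A5SS of Zm00001d020717, -46.9 for the exon of Zm00001d002534 and -49.8 for the exon of Zm00001d027756. The exons of Zm00001d002534 and Zm00001d027756 were 4.47 and 5.23 points higher at V5 than at V4 at 37°C.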

How the results depend on the processing

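No called result changed its direction under the alternatives run. The 225 DAS events were 222 with no read minimum, 224 with a minimum of 20 reads, 205 with adjustment over all events and 185 above 10 points. With a value required in all 6 libraries, edgeR called 313 with TMM and with RLE factors, and 209 of them were among the 225. Counts rose by over 1.5 times in 3 settings. With a value in all 3 libraries of each group there were 390 (IR 214, with 120 higher and 94 lower, ES 72, with 16 higher and 56 lower, A5SS 49, A3SS 41, MXE 14). At an FDR of 0.05 there were 517 (IR 293, with 157 and 136, ES 96, with 20 and 76, A5SS 65, A3SS 37, MXE 26). With a spread shared by all 8 groups there were 364 (IR 200, 112 higher, ES 66, 54 lower, A3SS 35, MXE 15). In edgeR, ES had 69 (14 higher, 55 lower) and A3SS 27, and A3SS had 24 with adjustment over all events. The fewest came from limma on log2 ratios, with 11 (IR 5, with 4 higher and 1 lower, A5SS 6, and 0 each of ES, with 0 higher and 0 lower, A3SS and MXE), although 1559 events had an unadjusted p under 0.05 there, and with 1, 0 and 0 interactions against 31°C, 33°C and 37°C. Counting shared skipping reads 1 time left 193 events, with ES 26 (19 lower) and A3SS 9.

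Deviations of same-numbered libraries had correlations of -0.0244, 0.0053 and -0.0174 over 4452 events. Those of other pairs of V4 and V5 libraries lay between -0.0234 and 0.0426. These values show no pairing by replicate number. They cannot exclude it in part of the events, since counting noise can hide a shared effect. The replicate block gave 157 events, 150 of them among the 225 (ES 16, with 4 higher and 12 lower, A5SS 19, A3SS 7). With a library left out, 150 to 205 events were called (IR 103 to 117, with 55 to 65 higher and 46 to 54 lower, ES 17 to 36, with 4 to 7 higher and 13 to 29 lower, A5SS 20 to 28, A3SS 3 to 19, MXE 2 to 11), and 112 of the 225 were called in all 6 fits and 6 in none. Interactions numbered 22 to 34, 15 to 19 and 20 to 28, and 14 against 31°C without the V4 31°C libraries with recovered reads, where 1 library is left in that group. The mean ψ differences were 0.74 to 0.95 points in IR and -2.47 to -2.17 in ES. The causes of these shifts were not tested. DAS events had more reads than tested events, and a missing call at low depth does not show an unchanged ψ.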

Other observations

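DAS events were found on all 10 chromosomes, from 2.13% of tested events on chromosome 2 to 4.15% on chromosome 6. The neighbouring shares were 2.21% on chromosome 8 and 3.91% on chromosome 5. Events of a gene share reads, so these shares are descriptions and were not tested.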
